A study of Mus musculus with 4 samples.

Results

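The 10 genes described here encode beta-defensins and other secreted antimicrobial proteins of mouse skin: Defb1, Defb3, Defb4, Defb6 and Defb14, the cathelicidin gene Camp, the lipocalin gene Lcn2, the protease inhibitor genes Slpi and Wfdc12, and the lactoperoxidase gene Lpo. They were chosen by name, as the probe sets whose single gene symbol in the array annotation is one of these, and all 10 were found among 19938 named genes, each read by 1 probe set. RNA from whole ears of 8-week-old female mice was measured on 4 Affymetrix Mouse Gene 1.0 ST arrays. The mice were Traf6f/f (f/f), which carry a floxed Traf6 gene, or Traf6EKO (EKO), with Traf6 knocked out in the epithelium (in keratinocytes, by the series title); its Cre driver is not named in the sources used here. Ears were left untreated or received 10 mg of imiquimod (IMQ) cream per day for 2 days. The 4 groups, f/f untreated, f/f with IMQ, EKO untreated and EKO with IMQ, hold 1 array each, so values have no replicate error, pairwise differences carry no p-value, and animal, array and group cannot be told apart. The series text gives n = 2 without saying whether RNA of 2 mice was pooled per array.

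Beta-defensins are small cationic peptides, held in shape by disulfide bonds, that disrupt microbial membranes and attract immune cells. Some are made by resting epithelium, and others are switched on in keratinocytes by IL-17, IL-22 and IL-1 family cytokines. TRAF6 is an adaptor through which IL-17, IL-1 family and Toll-like receptors activate NF-kB and MAP kinases, and imiquimod is an agonist of the Toll-like receptor TLR7 that provokes psoriasis-like inflammation in mouse skin. The arrays therefore ask how far the antimicrobial genes of the ear responded to imiquimod with and without epithelial Traf6.

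Promoter windows are shown for Defb3 and Defb6 because these are near neighbours of one gene family whose imiquimod differences depended on genotype to unlike degrees. They are the 250 bases before the RefSeq start site (GRCm38.p6, plus strand), chr8:19293111-19293360 for Defb3 and chr8:19225228-19225477 for Defb6. Capitals mark matches to the C/EBP motif TTNNGNAA or to the NF-kB consensus, on either strand, and sequences run 5′ to 3′ along the gene.
Defb3: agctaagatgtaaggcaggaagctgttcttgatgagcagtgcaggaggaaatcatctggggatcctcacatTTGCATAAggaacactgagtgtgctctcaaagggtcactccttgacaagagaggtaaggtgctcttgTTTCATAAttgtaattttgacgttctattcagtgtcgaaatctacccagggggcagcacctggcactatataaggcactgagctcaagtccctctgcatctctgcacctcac
Defb6: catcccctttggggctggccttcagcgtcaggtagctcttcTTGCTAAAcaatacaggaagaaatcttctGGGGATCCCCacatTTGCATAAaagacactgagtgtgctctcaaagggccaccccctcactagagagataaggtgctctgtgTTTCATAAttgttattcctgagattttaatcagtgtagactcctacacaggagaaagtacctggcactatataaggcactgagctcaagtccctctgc
Windows for Slpi and Wfdc12, which belong to the family of whey acidic protein (WAP) domain inhibitors and lie near each other on the minus strand of chromosome 2, are chr2:164356508-164356757 and chr2:164190559-164190808. They are shown as a second pair of near neighbours of 1 family; the levels of Wfdc12 lay below or close to the level floor described with the values, so its response is uncertain.
Slpi: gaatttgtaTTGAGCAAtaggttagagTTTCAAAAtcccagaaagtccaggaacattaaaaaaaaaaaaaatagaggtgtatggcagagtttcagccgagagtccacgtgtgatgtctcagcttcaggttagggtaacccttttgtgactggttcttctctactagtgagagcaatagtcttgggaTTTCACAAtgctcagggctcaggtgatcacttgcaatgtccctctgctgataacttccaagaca
Wfdc12: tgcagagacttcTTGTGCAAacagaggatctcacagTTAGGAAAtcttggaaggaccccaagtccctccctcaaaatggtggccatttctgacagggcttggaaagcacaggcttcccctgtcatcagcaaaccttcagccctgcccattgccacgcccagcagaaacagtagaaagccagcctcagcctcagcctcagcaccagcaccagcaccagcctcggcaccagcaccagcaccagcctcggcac

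The Defb3 and Defb6 windows aligned over 235 bases, of which 192 (81.7%) were identical. Among the other pairs of the 7 members with a window in the RefSeq table, identity lay between 58.6% and 68.6% over the bases aligned. Of the motifs searched on both strands, the C/EBP letters stood in the windows of 6 of these 7 genes, all but Camp, against 36.8% of 32851 promoter windows of the same length. The NF-kB consensus stood in 1 of 7, Defb6 (180 bases before its start), against 7.25% of all windows. At the aligned place in Defb3 the letters differed from those of Defb6 by 1 substitution, C9T, counted from 1 at the 5′ end of the 10-letter site. The C/EBP matches at 166 and 98 bases before the Defb6 start were the same letters in Defb3, at 179 and 112 bases. The third Defb6 match, at 209 bases, differed from the aligned Defb3 letters by 3 substitutions, and those letters did not match the motif. Neither the AP-1 motif TGANTCA nor the STAT motif TTCNNNGAA was found in any of the 7 windows (6.75% and 7.02% of all windows). A match is a run of letters and not a binding site, and these windows hold only sequence close to the start.

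Array medians lay between 6.52 and 6.57 (log2). A level floor was set at the median of all named genes on each array, between 6.93 and 6.98, below which signal approaches background and differences are compressed. A gene is called where its log2 difference is at least 1 (2-fold) and its level reaches the floor on at least 1 array of the comparison. Traf6, read by a single probe set, was 9.51 without and 9.30 with IMQ in f/f ears, and 9.65 without and 9.35 with IMQ in EKO ears. It was thus not lower on the arrays labelled EKO. Whole ear also holds non-epithelial cells, and where the probes lie against the deleted part was not stated, so Traf6 checks no label; EKO below means the arrays labelled so. The 10 keratinocyte markers listed as a tissue check, among them Krt5 and Krt14, all reached the floor on every array, with a mean level between 11.7 and 12.1. The 11 measured markers of dermis and other layers did so too.

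With imiquimod, 8 of the 10 antimicrobial genes were called higher in f/f skin, and 4 in EKO skin (Defb3, Defb6, Wfdc12 and Lpo). Without regard to the threshold, 9 of the 10 differences were above 0 in each genotype. With levels below the floor (defined above) raised to it, an alternative added after seeing the data, 6 were called in f/f, without Defb14 and Wfdc12, and 2 in EKO, Defb6 and Lpo. In f/f the background was 3.82% of 10548 genes called higher, and 9 of the 10 members reached the floor there. In EKO it was 0.671% of 10285 genes, and 7 members reached the floor. No member was called lower in either genotype, where 2.63% (f/f) and 0.0972% (EKO) of genes were. The median log2 difference over the 10 members was 2.78 in f/f and 0.82 in EKO, beside -0.01 over all genes in each. The mean level of 20 neutrophil markers, described further on, was 5.68 without and 6.91 with IMQ in f/f, and 5.71 and 6.02 in EKO. Of these markers, 12 were below the floor on all arrays and 7 were called higher in f/f. The part of neutrophils in the differences of the 10 members was not tested. On the plot of levels by array, the genes fall into those with a large f/f and a small EKO difference, those with about equal differences, and those without a difference.

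**Figure D1:**
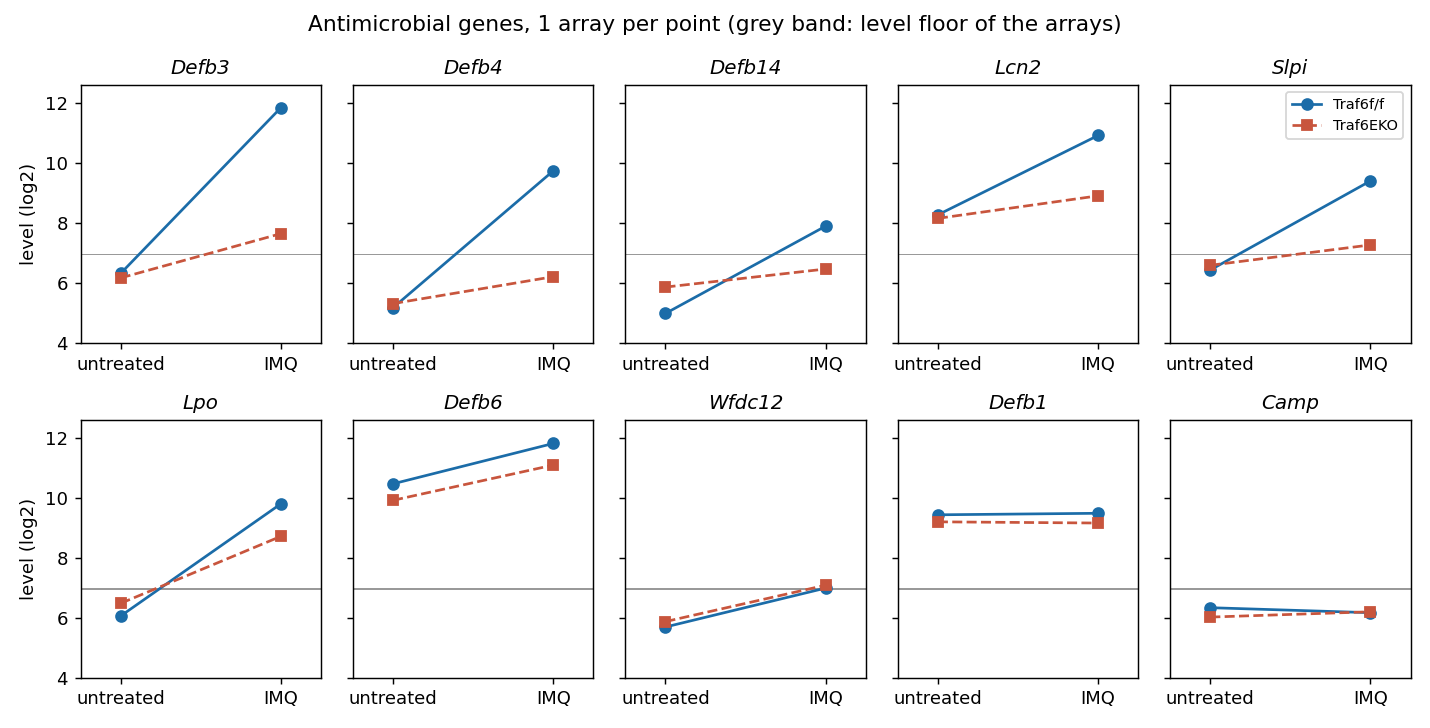
Level (log2, vertical axis) of each antimicrobial gene on the 4 arrays, untreated and with IMQ, for Traf6f/f (blue circles) and Traf6EKO (red squares); each point is 1 array and the grey band is the floor. The lines part with IMQ for Defb3, Defb4, Defb14, Lcn2, Slpi and Lpo, run side by side for Defb6 and Wfdc12, and are flat for Defb1 and Camp.

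Defb3, an inducible beta-defensin read by probe set 10570621, had a level of 6.32 without and 11.84 with IMQ in f/f ears, and 6.17 without and 7.64 with IMQ in EKO ears. The f/f IMQ array stood far above the other 3, and both untreated arrays lay below the floor. The difference with imiquimod was 5.52 (46.0-fold) in f/f, the second highest of all genes reaching the floor, and 1.48 (2.78-fold) in EKO. Its call in EKO rests on an untreated level below the floor: raised to the floor, the EKO difference was 1.60-fold and no longer called, and the f/f difference 29.0-fold. With IMQ, EKO was lower than f/f by 18.3-fold. The difference between the genotypes' responses, -4.05, was the lowest of 10646 genes.

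Defb4, a second inducible beta-defensin (probe set 10570610), stood at 5.18 without and 9.74 with IMQ in f/f ears, and 5.31 without and 6.21 with IMQ in EKO ears. It reached the floor in f/f IMQ skin alone. Its log2 difference was 4.56 in f/f and 0.90 in EKO, and EKO was 11.5-fold lower than f/f with IMQ. With levels below the floor raised to it, these were 6.75-fold higher with IMQ in f/f and a genotype gap of 6.92-fold with IMQ.

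Defb14, an inducible beta-defensin that also acts as a chemoattractant (probe set 10570606), stood at 4.98 without and 7.89 with IMQ in f/f ears, and 5.86 without and 6.46 with IMQ in EKO ears. It too reached the floor in f/f IMQ skin alone. The log2 difference was 2.91 in f/f and 0.60 in EKO. Untreated EKO was higher than untreated f/f by 0.88, the largest such difference among the 10 genes, on 2 arrays that both lay below the floor, and this adds to the gap between the responses (-2.31). EKO was 2.69-fold lower than f/f with IMQ. With low levels raised to the floor, Defb14 was called in no comparison (1.88-fold in f/f, and 1.93-fold between the genotypes with IMQ).

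Lcn2 encodes a lipocalin that withholds iron from bacteria by binding their siderophores. It reached the floor on every array (probe set 10481627), at 8.27 without and 10.91 with IMQ in f/f ears, and 8.15 without and 8.90 with IMQ in EKO ears. The untreated levels lay 0.12 apart, and the IMQ levels 2.01 apart. The log2 difference with imiquimod was 2.64 (6.25-fold) in f/f and 0.75 (1.68-fold) in EKO. Since both sides were measured above the floor in both genotypes, these folds do not rest on signal near background.

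Slpi encodes a secreted inhibitor of neutrophil serine proteases with antibacterial activity (probe set 10489463). It stood at 6.43 without and 9.40 with IMQ in f/f ears, and 6.59 without and 7.27 with IMQ in EKO ears. Unlike Lcn2, it lay below the floor on both untreated arrays. The log2 difference was 2.97 in f/f and 0.68 in EKO, and EKO was 4.39-fold lower than f/f with IMQ. With low levels raised to the floor, Slpi was 5.35-fold higher with IMQ in f/f and 1.24-fold in EKO.

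Lpo encodes lactoperoxidase, which turns hydrogen peroxide and thiocyanate into a bactericidal oxidant (probe set 10389639). It stood at 6.06 without and 9.79 with IMQ in f/f ears, and 6.48 without and 8.71 with IMQ in EKO ears. The difference was 3.74 (13.3-fold) in f/f and 2.23 (4.70-fold) in EKO, the largest of the 10 genes in EKO and eighth of all genes reaching the floor. EKO was 2.12-fold lower than f/f with IMQ, a smaller gap than that of the 5 genes above as measured. Once low levels were raised to the floor, the Defb14 gap was 1.93-fold, below that of Lpo (2.12-fold). With low levels raised to the floor, Lpo was 7.03-fold higher with IMQ in f/f and 3.36-fold in EKO.

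Defb6, a further beta-defensin (probe set 10570614), was above the floor on every array, at 10.46 without and 11.81 with IMQ in f/f ears, and 9.91 without and 11.09 with IMQ in EKO ears. The log2 difference with imiquimod was 1.34 (2.54-fold) in f/f and 1.17 (2.26-fold) in EKO, a gap of -0.17. EKO was lower than f/f by 0.55 without and by 0.72 with IMQ (log2), neither of which reached 2-fold. The genotype difference of Defb6 was thus of similar size on both pairs of arrays. Defb3, near it in the genome, differed by -0.15 without IMQ, where both levels lay below the floor, and by -4.20 with IMQ. Sebaceous and gland markers were lower in EKO than in f/f ears without IMQ as well, in 9 of 9 measured genes (median -0.73). Of these, 2 were called, Scd3 at -1.92 and Mc5r at -1.07, against 0.324% of 10200 genes called lower. The direction was not particular to this list. Macrophage markers (10 of 10, median -0.22) and markers of dermis and other layers (11 of 11, -0.13) were lower too, with none called. Keratinocyte markers were higher in EKO in 10 of 10. The mean level of the sebaceous and gland markers was 9.58 without and 9.40 with IMQ in f/f, and 8.82 and 8.96 in EKO. The part of any of these cell types in the genotype difference of Defb6 was not tested.

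Wfdc12, a small WAP-domain protein with antibacterial activity (probe set 10489434), stood at 5.69 without and 6.99 with IMQ in f/f ears, and 5.87 without and 7.08 with IMQ in EKO ears. Its log2 difference was 1.30 in f/f and 1.21 in EKO. Both IMQ levels lay close to the floors of those arrays (6.93 and 6.94). With low levels raised to the floor, Wfdc12 was 1.00-fold in f/f and 1.09-fold in EKO, and not called.

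Defb1, the beta-defensin of resting epithelium (probe set 10570741), was above the floor on all 4 arrays, at 9.43 without and 9.48 with IMQ in f/f ears, and 9.19 without and 9.15 with IMQ in EKO ears. The log2 difference with imiquimod was 0.05 in f/f ears and -0.04 in EKO ears, and EKO was lower than f/f by 0.23 without and 0.32 with IMQ. Camp, the precursor of the cathelicidin peptide stored in neutrophil granules and also made by keratinocytes (probe set 10597098), was below the floor throughout, at 6.33, 6.17, 6.02 and 6.20 in the same order. Its differences with imiquimod, -0.17 in f/f and 0.18 in EKO, are of signal near background.

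Without imiquimod, none of the 10 genes was called between the genotypes, where 0.0686% of 10200 genes were called higher and 0.324% lower in EKO; 3 members reached the floor. With imiquimod, 6 members were called lower in EKO than in f/f (Defb3, Defb4, Defb14, Lcn2, Slpi and Lpo) and none higher, against 0.875% lower and 0.418% higher of 10282 genes. The same 6 were called lower when the f/f response was subtracted from the EKO response, and none higher, against 1.18% lower and 1.06% higher of 10646 genes. These comparisons share arrays, so the counts are not separate pieces of evidence. The median over the 10 members was 0.01 without IMQ, -1.26 with IMQ, and -1.70 for the difference of the responses.

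The part of the f/f response seen in EKO was expressed as the ratio of the log2 differences. It is given for Lcn2 (0.284) and Defb6 (0.873), the called members that reached the floor on every array. The other 6 lay below the floor on both untreated arrays, so their ratios would rest on signal near background. Among the other 395 genes called higher in f/f, some of which also start below the floor, the median ratio was 0.426, with quartiles of 0.321 and 0.531. Genes picked for a high f/f difference can have that difference overstated and this ratio understated. At or above the ratio of Defb6 lay 5 of the 395 (1.27%), which were Nmu, Krt79, Plac8, Slc13a3 and Gadl1, singled out after their values were seen; Krt79, a keratin of the hair canal and sebaceous duct, stood at 1.06 in f/f and 1.10 in EKO.

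**Figure D2:**
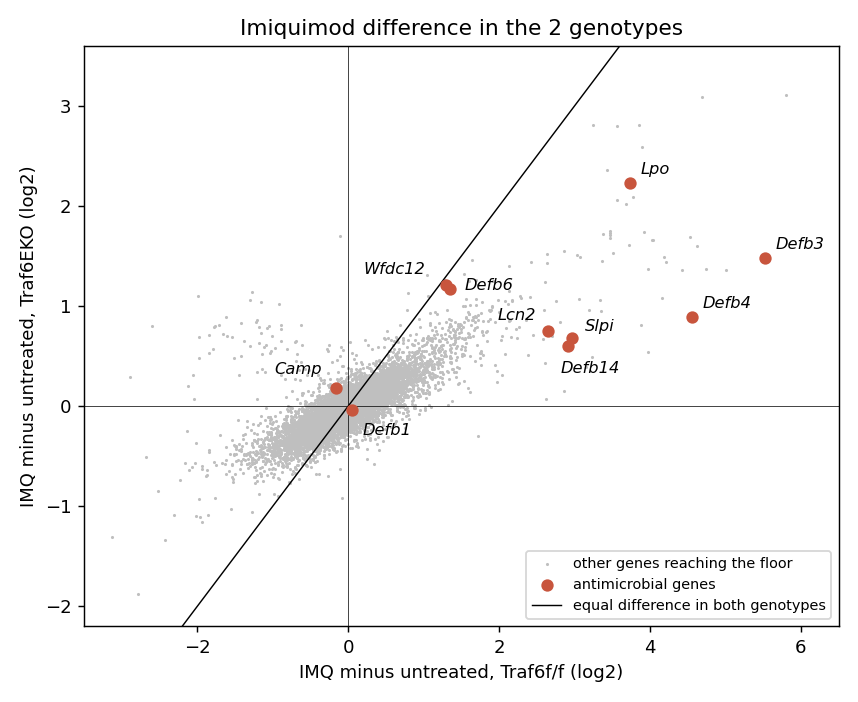
Log2 difference with IMQ in Traf6f/f (horizontal axis) and Traf6EKO (vertical axis) for the 10 antimicrobial genes (red) and for all further genes at or above the floor somewhere (grey), 1 array per group; the line marks equal differences. Defb6 and Wfdc12 lie next to the line, Lpo lies between, and Defb3, Defb4, Defb14, Lcn2 and Slpi lie far to the right of it.

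The IMQ difference averaged over genotype was tested with limma, which weighs it against the genotype-by-IMQ difference and noise (2 arrays per level, 1 residual degree of freedom; Camp, below the floor, was not tested). No member passed a Benjamini-Hochberg adjusted p of 0.05, and neither did any of the 10646 genes tested (0% called in either direction). At an unadjusted p below 0.05, limma had 8 of 9 members tested higher with IMQ, and 1311 of all genes higher and 1497 lower. The limma adjusted p was 0.162 for Defb6 (1.26 ± 0.11, log2 difference ± SE), 0.162 for Lpo (2.99 ± 0.38), 0.162 for Wfdc12 (1.26 ± 0.19) and 0.164 for Defb3 (3.50 ± 1.01). The averaged genotype effect called no gene either (0%), with limma adjusted p-values of 0.999 for all 9 members and 1 member, Defb6, at an unadjusted p below 0.05 (-0.64 ± 0.11), as were 206 genes higher and 138 lower over the whole array. Spread among animals of 1 group could not be estimated, and any such noise is mixed in the error term with the genotype-by-IMQ difference. The error term holds each gene's own dependence on genotype, which was larger for Defb3 than for Defb6.

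Of the 5 defensin genes, 4 lie together on chromosome 8 in the RefSeq order Defb14, Defb4, Defb6, Defb3, in a stretch of 8 genes of which 6 were measured. Neither of the others measured inside it was called: Defb46 stood at -0.15 in f/f and -0.19 in EKO, and Defb5 at 0.15 and -0.02. Counting also the 5 genes on each side, the 7 measured neighbours lay between -0.15 and 0.16 in f/f and between -0.19 and 0.24 in EKO, although only Defb46 reached the floor on any array. Over the whole beta-defensin family, 35 further genes were measured; 34 were below the floor on every array, and their IMQ differences in f/f lay between -0.42 and 0.26. Whether closely related defensins share probes was not tested.

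Wfdc12 and Slpi bound a stretch of 10 measured genes on chromosome 2. With the 5 genes on each side, its 15 measured non-members lay between -0.12 and 0.57 in f/f, the highest being Wfdc5 (0.57 in f/f and 0.30 in EKO). Only 4 of these 15 reached the floor on any array. Of the 17 further measured genes of the WAP family, 7 reached the floor in f/f and 7 in EKO. None was called higher with IMQ in either genotype, where 3.82% (f/f) and 0.671% (EKO) of genes reaching the floor were. Just past the threshold, 1, Wfdc21, was called lower in f/f (-1.01, and -0.49 in EKO), against 2.63% of genes. The 10 lipocalin genes other than Lcn2 were below the floor on all arrays. Of the other measured peroxidases, the eosinophil enzyme gene Epx, a near neighbour of Lpo, was below the floor on all arrays, at 0.06 in f/f and 0.37 in EKO. Mpo, next to Lpo in RefSeq order, was below it on all arrays too, at -0.0015 and 0.06. Pxdn, which reached the floor on every array, was not called, at -0.85 in f/f and -0.42 in EKO.

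**Figure D3:**
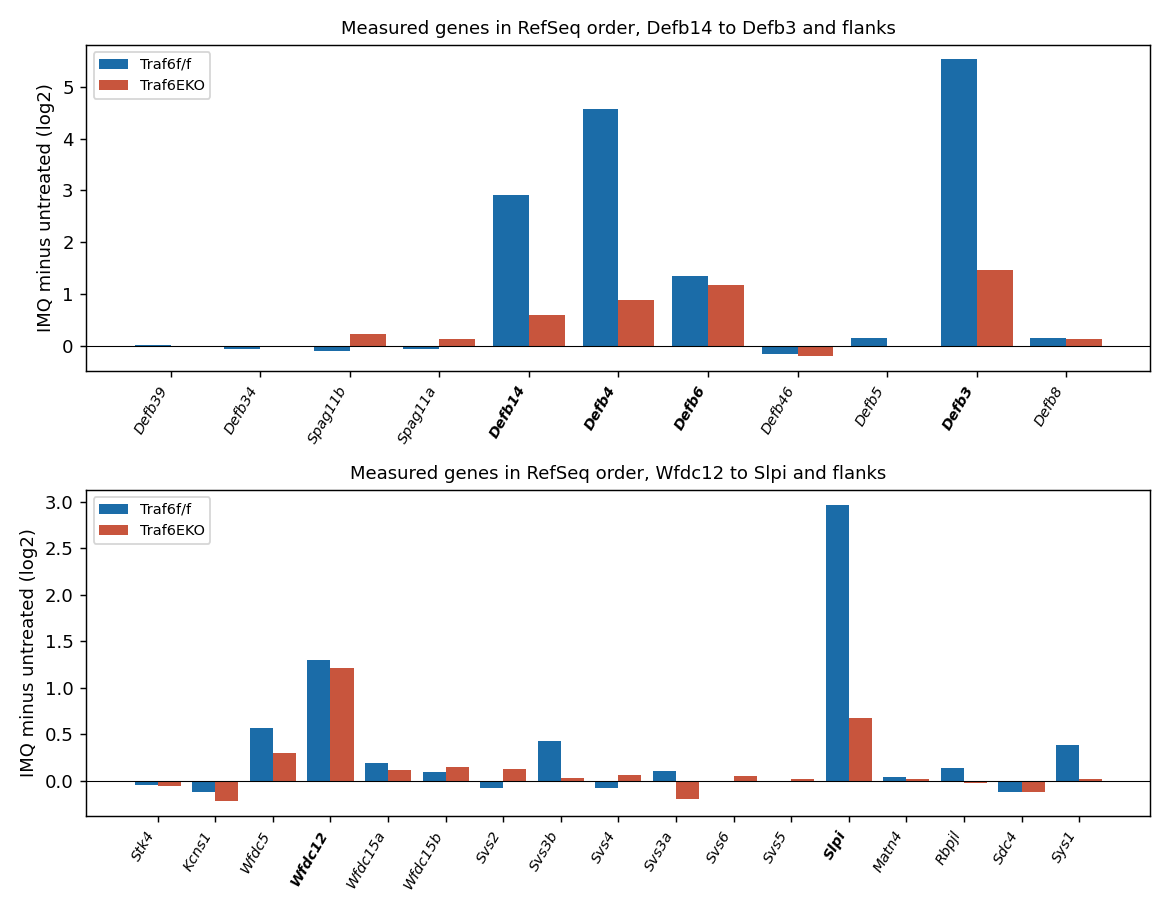
Log2 difference with IMQ (vertical axis) in Traf6f/f (blue) and Traf6EKO (red) for the measured genes in RefSeq order around Defb14 to Defb3 (top) and Wfdc12 to Slpi (bottom), 1 array per group; members are in bold. Tall bars stand only at the members, and the blue and red bars are about equal at Defb6 and Wfdc12. Of the measured non-members, 1 of 7 (top) and 4 of 15 (bottom) reached the floor on any array.

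The genes nearest in pattern were found by the root mean square difference between profiles over the 4 arrays, each centred on its own mean, among 10646 genes. Nearest to Defb3 were the calprotectin subunits S100a8 (0.26) and S100a9 (0.36) and the small proline-rich gene Sprr2e (0.53). Nearest to Defb4 were S100a9 (0.18), Sprr2f (0.19) and S100a8 (0.24). Defb14 was nearest to the prostaglandin synthase gene Ptgs2 (0.13), Il1f6 (0.16) and Prss27 (0.18), whose untreated levels were higher in EKO than in f/f by 1.17, 0.90 and 0.60. Lcn2 was nearest to the C-type lectin Clec4e (0.06), the chemokine Ccl3 (0.14) and Pi15 (0.15). Slpi was nearest to Ccl3 (0.12), Clec4e (0.14) and the growth factor Hbegf (0.165), and Lcn2 and Slpi lay 0.12 apart. Lpo lay next to the glutathione transferase gene Gsta4 (0.06), 2610528A11Rik (0.11) and the stefin gene Stfa2 (0.16). Defb6 lay next to the fatty acid elongase gene Elovl3 (0.10), Plac8 (0.10) and Serpinb11 (0.10). Wfdc12 lay next to the carboxylate transporter gene Slc13a3 (0.02), the transglutaminase gene Tgm5 (0.11) and the deiodinase gene Dio2 (0.11). Defb1 lay next to Pmepa1 (0.01), Ctsz (0.01) and Timm8b (0.02), and Camp to Parm1 (0.01), Gata6 (0.02) and Pnp (0.03), genes whose levels differed little between arrays.

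Among 26 measured genes of other secreted antimicrobial proteins, 11 reached the floor in f/f and 8 in EKO. With IMQ, 6 were called higher and 1 lower in f/f, and 2 higher in EKO. Over all genes reaching the floor, 3.82% were called higher and 2.63% lower in f/f, and 0.671% higher in EKO. The list's median was 0.14 in f/f and 0.02 in EKO, beside -0.01 over all genes. S100a8 stood at 5.01 in f/f and 1.36 in EKO, and S100a9 at 4.74 and 1.37. Both lay below the floor on both untreated arrays, so their folds are imprecise. Their EKO IMQ levels were 7.54 (S100a8) and 8.07 (S100a9). The other 4 were called in f/f and not in EKO: the antimicrobial chemokine Ccl20 (3.19 and 0.96), the peptidoglycan recognition proteins Pglyrp3 (2.04 and 0.70) and Pglyrp4 (2.03 and 0.66), and S100a7a (1.05 and 0.16). All 6 were called lower in EKO than in f/f with IMQ, where 0.875% of 10282 genes were. The 1 gene called lower was the lysozyme gene Lyz1, at -1.98 in f/f and -0.93 in EKO; its relative Lyz2, not called, stood at -0.72 and -0.16.

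Of 14 measured cytokines known to induce antimicrobial genes, 7 reached the floor in f/f and only 4 in EKO. With IMQ, 6 were called higher in f/f and none in EKO, against 3.82% and 0.671% of genes reaching the floor. The median difference of the 14 was 0.94 in f/f and 0.02 in EKO. Il1b led, at 3.88 in f/f and 0.81 in EKO, and the IL-36 genes, listed under older symbols, were Il1f6 (2.66 and 0.77), Il1f8 (1.42 and 0.66) and Il1f9 (1.07 and 0.31). Il1a stood at 2.04 in f/f and 0.31 in EKO, and Il17c, an epithelial IL-17 family cytokine, at 1.15 and 0.18. Il1b and Il17c reached the floor on the f/f IMQ array alone, at 9.41 and 7.26. Their EKO differences are thus of signal below the floor. The calls of Il17c rest on a level close to the floor of that array (6.93). Il17a (0.31 and -0.01) and Il17f (0.53 and -0.02) were below the floor on all arrays. With IMQ, 3 of the 14 were called lower in EKO than in f/f, against 0.875% of 10282 genes: Il1b (-2.83), Il1a (-1.28) and Il17c (-1.22).

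Their 13 measured receptor chains all reached the floor on every array. None was called higher in either genotype, where 3.82% (f/f) and 0.671% (EKO) of genes were. Il20ra, a receptor chain for IL-20 family cytokines, was called lower in f/f (-1.23, and -0.61 in EKO), and Il17rc, a chain of the IL-17 receptor, stood at 0.63 and 0.32. None of 15 measured adaptors and transcription factors was called in either genotype. In f/f the largest differences were in Myd88 (0.98 in f/f and 0.27 in EKO), Nfkbiz (0.80 and 0.42), which encodes a nuclear co-activator of NF-kB at antimicrobial genes, Stat3 (0.78 and 0.22) and Cebpb (0.66 and 0.26).

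Of 14 measured partners of these proteins, 7 reached the floor in f/f and 6 in EKO. With IMQ, 1 was called higher in f/f and none in EKO, against 3.82% and 0.671% of genes reaching the floor. Duox1, an oxidase that can supply Lpo with hydrogen peroxide, stood at 1.16 in f/f and 0.21 in EKO, and its maturation factor Duoxa1 at 0.62 and 0.14. The kallikreins that cleave the cathelicidin precursor stood at 0.72 and 0.46 (Klk5) and at 0.67 and 0.28 (Klk7). The Lcn2 receptor gene Slc22a17 stood at -0.47 and -0.28, and Ccr6, a chemokine receptor for beta-defensins, was below the floor on all arrays.

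**Figure D4:**
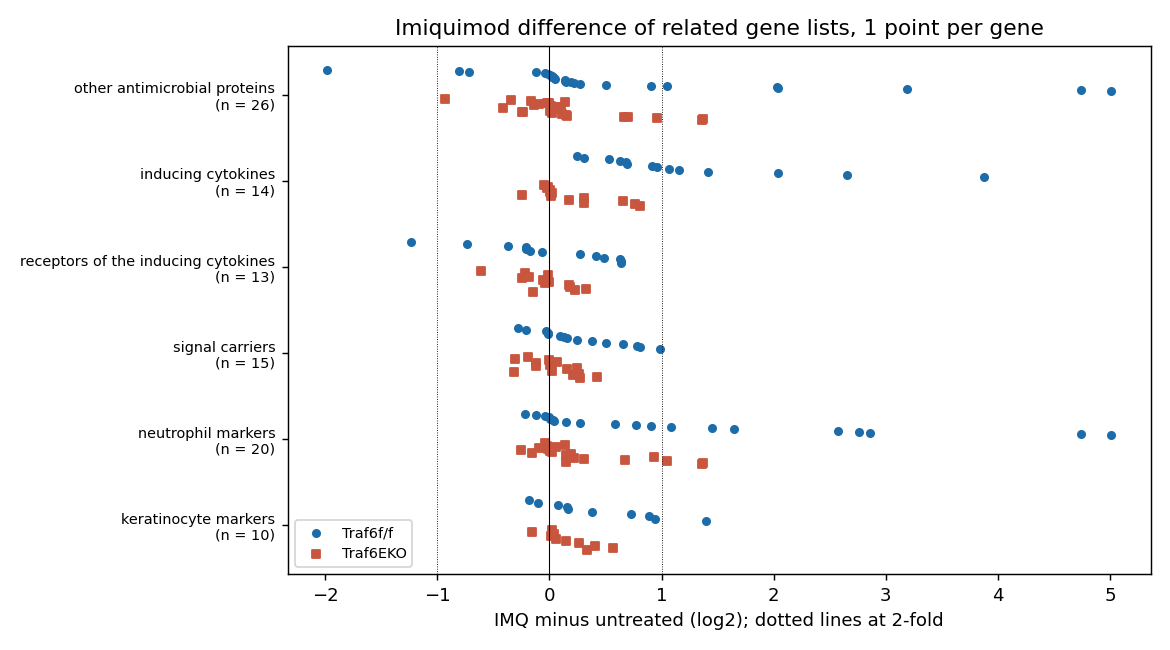
Log2 difference with IMQ (horizontal axis) for each measured gene of 6 fixed lists in Traf6f/f (blue) and Traf6EKO (red), 1 array per group, with dotted lines at 2-fold. In the cytokine list 6 blue points and no red point that reach the floor lie beyond 2-fold, and no gene of the signal carrier list does.

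Neutrophils store Lcn2 and Camp, and some markers of these cells were called higher with IMQ, while most were not. In f/f ears 2 of 20 measured neutrophil markers reached the floor without and 8 with IMQ, and in EKO ears 3 and 5. With IMQ, 7 were called higher in f/f and 3 in EKO, against 3.82% and 0.671% of genes reaching the floor. The 7 were S100a8 and S100a9, which keratinocytes also make, Trem1 (2.86 in f/f and 0.15 in EKO), Cxcr2 (2.76 and 1.05), Clec4e (2.58 and 0.67), Csf3r (1.45 and 0.22) and Itgam (1.08 and 0.94). Of the 7, only Itgam reached the floor on every array. Trem1, Clec4e and Csf3r reached it on the f/f IMQ array alone, at 7.41, 7.10 and 7.16. The floor there was 6.93, so their calls rest on signal near background. The granule genes Ltf, Ngp and Elane, like the neutrophil surface gene Ly6g, were among the 12 markers below the floor on all arrays, as was Camp. Mmp9, a marker that reached the floor on every array, was not called (0.04 in f/f and -0.25 in EKO). Keratinocyte markers had a median difference of 0.28 in f/f and 0.11 in EKO, and 1 of 10, Dsg3, was called higher in f/f (1.40). The part of either cell type in the antimicrobial differences was not tested, and in whole ear fewer cells of a type and less RNA per cell cannot be told apart.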

How the data were processed

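The authors deposited probe set levels on a log2 scale, made with RMA, per the submitters' processing notes; the log2 scale was read from the values, and version and annotation were not stated. RMA in general corrects background, equalises array distributions and summarises probes, so low signals are compressed and a global shift would not show. The number of arrays limits the precision. Of 35556 probe sets, 21789 had 1 gene symbol and were used; per gene the probe set with the highest mean stood for it. Groups came from the sample titles. The 10 genes, the lists and the tests were chosen with earlier results of these data known. Named in the text are all 10 genes, Traf6, list genes past 2-fold (up to 4, plus those a sentence needs), the 3 genes nearest each in pattern, and RefSeq neighbours. Symbols of all 10 were found by Entrez identifier in RefSeq (GRCm38.p6), used for names, gene order and promoter sequence; 7 of the 10 had a promoter window. Protein sequences were not analysed here. Averaged effects were fitted with limma 3.58.1 (lmFit, then eBayes with trend) under R 4.3.3, genotype or IMQ as covariate. Benjamini-Hochberg adjustment ran over 10646 genes reaching the floor. The step was tested on simulated data with equal IMQ shifts planted in both genotypes: 100% were recovered, with 12 false calls. That simulation held no genotype-by-IMQ difference, so it does not show what could be detected in these data. Other steps used Python 3.11.15, numpy 2.4.6, pandas 2.3.3 and matplotlib 3.10.9.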

Additional observations from a re-analysis of the deposited data

Results flagged for a closer look

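The IMQ differences of some genes named above had opposite signs in the 2 genotypes. None of these differences was called, many were near 0, and the sign itself is uncertain with 1 array a side; the difference between the genotypes was not tested; across scalings the f/f difference of Defb1 lay between 0.0044 and 0.105. The EKO response minus the f/f response (log2) was -0.0905 for Defb1 and -0.12, -0.0565 and -0.0802 for its nearest genes in pattern, Pmepa1, Ctsz and Timm8b. It was 0.34 for Camp, and 0.35, 0.37 and 0.30 for its nearest genes, Parm1, Gata6 and Pnp. It was -0.17 for Defb5, -0.74 for Ly6g, -0.32 for Il17a and -0.55 for Il17f, all below the floor on all 4 arrays.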

How the results depend on the processing

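The 50 differences of the 10 genes (5 comparisons each) moved by at most 0.11 (log2) under median scaling, cyclic loess, quantile normalization or when all single-symbol probe sets of a gene were averaged, and none of the called differences changed sign. The counts of genes called stayed at 8 (IMQ in f/f), 4 (IMQ in EKO), 0 (genotype, untreated), 6 (genotype, with IMQ) and 6 (difference of the responses) under these and with no floor. With the floor at the 60th percentile, 7 were called in f/f and 3 in EKO, Wfdc12 being lost in both; the other counts were 0, 6 and 6. With levels below the floor raised to it, an alternative chosen after seeing the data, 2 genes (Defb6 and Lpo) were called with IMQ in EKO, and 6, 0, 5 and 5 in the other comparisons in that order. Defb14 and Wfdc12 were then under 2-fold in f/f (1.88-fold and 1.00-fold), and Defb3 was 29.0-fold and Defb4 6.75-fold higher there. At a 4-fold threshold 1 gene (Lpo) was called with IMQ in EKO, and 6, 0, 4 and 4 in the other comparisons. At a 1.5-fold threshold 6 genes were called with IMQ in EKO, Lcn2 and Slpi being added. The other comparisons then had 8, 0, 7 and 6, Defb6 joining the genes lower in EKO than in f/f with IMQ. No gene passed the averaged limma tests under any setting, the lowest adjusted p of a member being between 0.14 and 0.213 for IMQ and at least 0.991 for genotype. Leaving out an array leaves no residual degrees of freedom, so none was left out. No paired analysis was possible because each group holds 1 array. The 5 genes below the floor on both untreated arrays that were called in f/f besides Wfdc12 have imprecise folds.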
